A study of Caenorhabditis elegans with 3 samples.

Results

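The 93 genes described here are the FMRFamide-like peptide genes (flp) and 4 families of neuropeptide receptor genes (npr, frpr, dmsr and ckr) of the nematode Caenorhabditis elegans, out of 15143 genes measured. A gene was included when its symbol was a family name followed by a number and at least 1 probe of the array was assigned to that gene alone. There were 22 peptide genes and 71 receptor genes, and the receptor genes were 41 npr, 15 frpr, 13 dmsr and 2 ckr genes. All 93 had a value on each of the 3 arrays. Only npr-14 had 2 probes, and the others had 1.

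Late third-stage (late L3) hermaphrodite larvae, collected as preparations (preps) 1, 2 and 3, were each hybridised on 1 two-colour array against a mixed wild-type mRNA reference common to the 3 arrays. The labels give the larvae a code, TP02, which the sources used do not explain. Apart from this code they state no genotype, strain or treatment for the larvae, no ages or sexes for the animals pooled in the reference, and no word on whether the preps were separate cultures. The limma p-values therefore set each mean against the spread between these 3 preps, which limma partly shares between genes. This spread may be partly technical, and prep, array and array date cannot be told apart. Values are log2 ratios with the median of each array set to 0, so that -1 stands for a level 2-fold below the reference relative to the typical probe. Which channel the ratio has on top is not given in the sources used. The likely direction, late L3 over reference, was taken from the order in which the descriptions name the 2 RNAs and from the larvae being in channel 2. With the opposite direction every sign below would turn. In this direction 5 of 6 sperm markers were lower and 0 higher by limma (adjusted p under 0.05 over all genes), where 11.9% of all genes were lower and 11.4% higher. Of 8 germ line and oocyte markers, 4 were lower and 2 higher, with means from -3.70 for cpg-1 to 2.08 for glh-1.

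FMRFamide-like peptides are short neuropeptides that end in arginine and amidated phenylalanine. They are cut from larger precursor proteins by a proprotein convertase and a carboxypeptidase, amidated at the C terminus, stored in dense core vesicles and released from neurons. Most act on G protein-coupled receptors. The npr and frpr genes encode such receptors, the dmsr genes encode relatives of the insect myosuppressin receptors, and the ckr genes encode relatives of the cholecystokinin receptors. In C. elegans these signals act on locomotion, feeding, sleep, egg laying and fat storage.

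The peptide genes stood low in late L3 larvae. Of 22, 12 were lower than the reference and 0 were higher by limma. That is 54.5% of the peptide genes, where 11.9% of all genes were lower and 11.4% higher. No peptide gene with a positive mean had an unadjusted p under 0.05 (0 genes), by limma or by a test that shares no spread between genes, against 17.6% and 9.69% of all genes. The median log2 ratio of the 22 genes was -0.76, against 0.00 for all genes, and 19 of the 22 (86.4%) were below the array median in every prep, against 29.2% of all genes. In every prep above it were 0 peptide genes, against 26.8% of all genes. In 10 of the 22, the mean lay in the lowest 10% of all genes. In bulk RNA of whole animals, RNA per neuron cannot be told apart from the part that neurons make up of the sample. The same holds for the reference, and the cause of the low ratios was not tested.

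**Figure D1:**
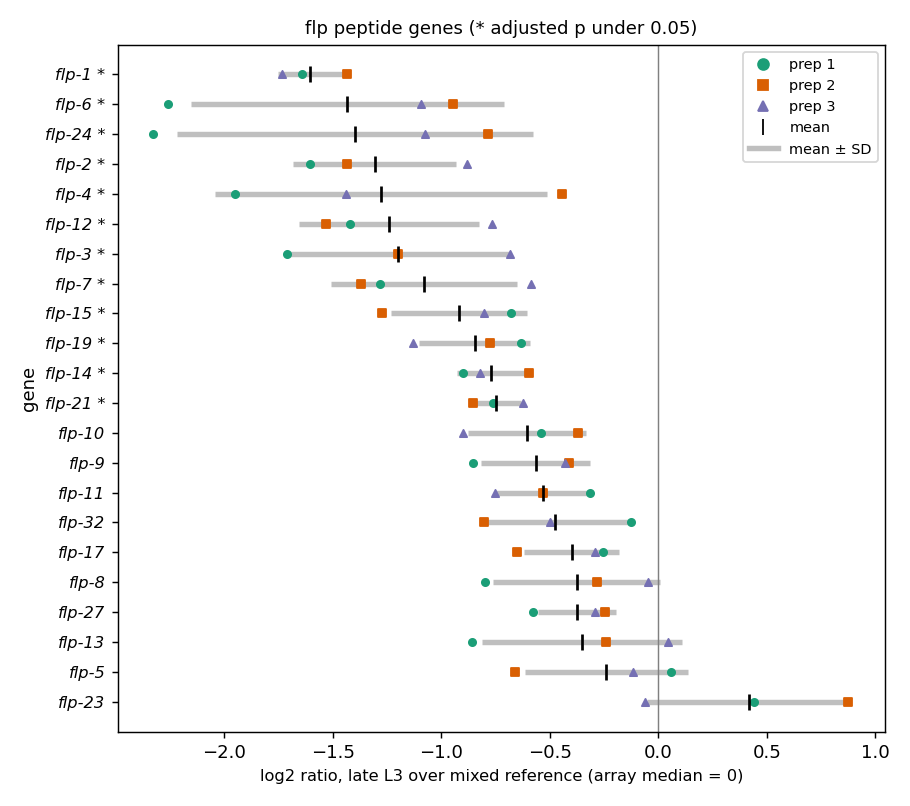
Log2 ratio of late L3 larvae over the mixed reference for each of 22 flp genes, 1 gene per line, with a symbol for each prep, a tick for the mean and a grey bar for mean ± SD (n = 3). Asterisks mark the 12 genes with an adjusted p under 0.05, and 21 of the 22 means lie left of 0.

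The lowest was flp-1, whose peptides come largely from the AVK interneurons and keep body bends shallow. It was at -1.64, -1.43 and -1.73 in preps 1, 2 and 3, with a mean of -1.60 ± 0.15 (SD, n = 3), 3.04-fold lower (adjusted p = 0.000475, limma). The 3 preps lay close together and all far below 0.

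Next came flp-6, a peptide gene of the thermosensory neurons known from work on lifespan, at -2.26, -0.95 and -1.09 (mean -1.43 ± 0.72, 2.70-fold lower, adjusted p = 0.00459, limma). flp-24, one of the peptide genes of the sleep-promoting neuron ALA, was at -2.33, -0.78 and -1.08 (mean -1.40 ± 0.82, 2.63-fold lower, adjusted p = 0.00732, limma). In both genes prep 1 was more than 1 log2 unit below the other preps, which themselves were clearly below 0. flp-4 was at -1.95, -0.44 and -1.44 (mean -1.28 ± 0.77, adjusted p = 0.0097, limma), with prep 2 nearest to the reference.

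A further 4 genes, flp-2, flp-12, flp-3 and flp-7, are on the X chromosome and were 2.11- to 2.47-fold lower. flp-2, which promotes locomotor arousal, was at -1.60, -1.43 and -0.88 (mean -1.31 ± 0.38, adjusted p = 0.00249, limma). flp-12 was at -1.42, -1.53 and -0.76 (mean -1.24 ± 0.41). flp-3 was at -1.71, -1.20 and -0.68 (mean -1.20 ± 0.51). In each of these genes prep 3 lay nearest to 0. The same held for flp-7, which acts on fat metabolism from sensory neurons, at -1.28, -1.37 and -0.59 (mean -1.08 ± 0.43, adjusted p = 0.00815, limma). The whole array of prep 3 was the least spread, with a median absolute deviation (scaled to an SD) of 0.39 over its probes, while preps 1 and 2 had 0.69 and 0.77. With the arrays scaled to an equal spread, the same number of peptide genes, 12, was lower.

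The last 4 genes past the threshold had means under 2-fold. flp-15, whose peptides activate the receptor NPR-3, was at -0.68, -1.27 and -0.80 (mean -0.92 ± 0.31, adjusted p = 0.0138, limma). flp-19 was at -0.63, -0.77 and -1.13 (mean -0.84 ± 0.26). flp-14 was at -0.90, -0.59 and -0.82 (mean -0.77 ± 0.16). The preps of flp-14 and flp-21 lay close together, but close to the threshold too. flp-21, which encodes a ligand of the receptor NPR-1, was at -0.76, -0.85 and -0.62 (mean -0.75 ± 0.11, adjusted p = 0.0265, limma).

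The number of calls depended on which preps were used. Without prep 2, 6 peptide genes were lower, where 6.66% of all genes were. They were flp-1, flp-2, flp-4, flp-6, flp-12 and flp-24, and flp-3, flp-7, flp-14, flp-15, flp-19 and flp-21 had adjusted p-values between 0.0525 and 0.102 (limma). Without prep 1, 10 were lower (9.66% of all genes), and flp-14 and flp-21 were at 0.0895 and 0.0734. Without prep 3, 9 were lower (10.2% of all genes), and flp-14, flp-19 and flp-21 were between 0.0786 and 0.128. The median of the 22 genes hardly moved, between -0.73 and -0.72.

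The other 10 peptide genes did not pass. Among these, 9 had means below 0. flp-10 was at -0.60 ± 0.27 (adjusted p = 0.0716, limma) and flp-17, a peptide gene of the BAG sensory neurons, at -0.40 ± 0.22. Peptides of flp-10 and flp-17 act on the receptor EGL-6 to slow egg laying. flp-9 was at -0.56 ± 0.25, flp-32 at -0.48 ± 0.34, flp-8 at -0.37 ± 0.38, flp-27 at -0.37 ± 0.18 and flp-5 at -0.24 ± 0.38. The 95% intervals of 3 of the 10 genes, flp-9, flp-10 and flp-11, reached -1 or lower.

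Genes of sleep peptides were thus found at different places in the order. flp-11, the peptide gene of the sleep neuron RIS, was at -0.31, -0.53 and -0.75 (mean -0.53 ± 0.22, adjusted p = 0.101, limma). flp-13, which is expressed in ALA like flp-24, was at -0.86, -0.24 and 0.04 (mean -0.35 ± 0.46, 95% interval -0.88 to 0.18). The difference between flp-13 and flp-24 was not tested. The only peptide gene with a positive mean was flp-23, at 0.44, 0.87 and -0.06 (mean 0.42 ± 0.47, adjusted p = 0.240, limma), whose preps lay on both sides of 0.

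The receptor genes lay closer to the reference. Of 71, 7 were lower and 2 higher (9.86% and 2.82%), where 11.9% and 11.4% of all genes were lower and higher, so that the share of lower calls was near that of all genes. Their median was -0.15, against 0.00 for all genes, and 24 of the 71 (33.8%) lay below 0 in every prep, against 29.2% of all genes. Above 0 in every prep were 8 (11.3%), against 26.8% of all genes. The means ran from -0.95 to 0.88, and 52 of the 71 lay within 0.5 of 0. None of the 71 means (0 genes) was 2-fold or more from the reference, whereas 8 of the 22 peptide genes were at least 2-fold lower. Of all genes, 7.04% were at least 2-fold lower and 6.85% at least 2-fold higher.

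**Figure D2:**
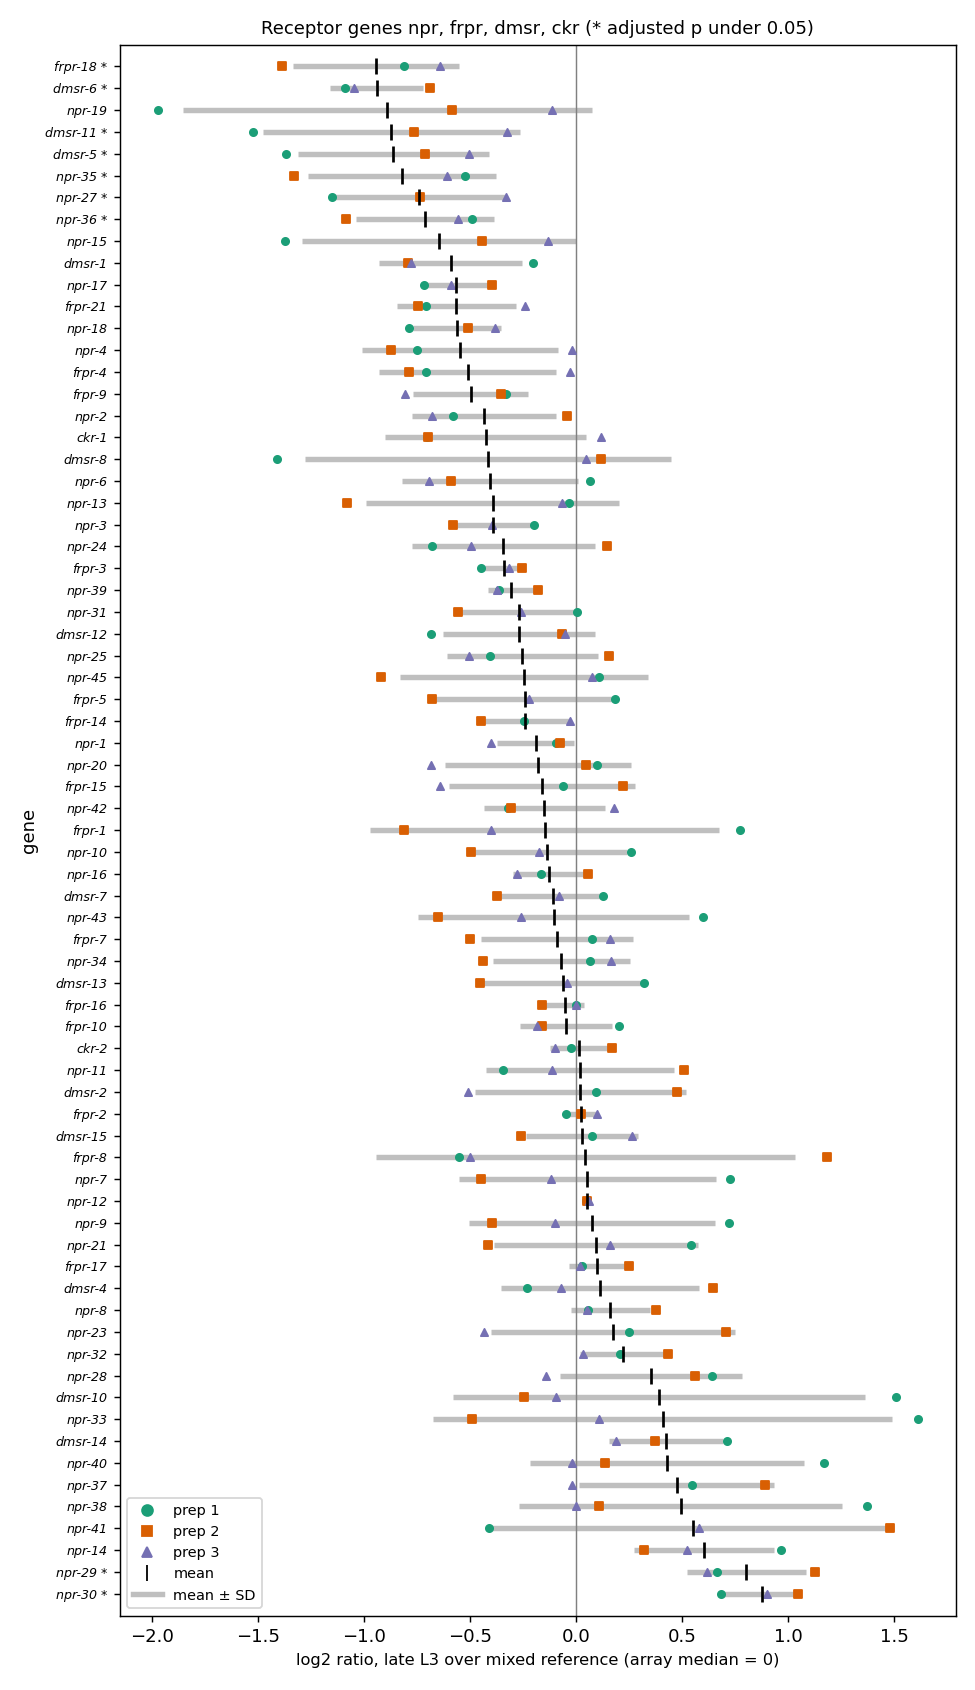
Log2 ratio of late L3 larvae over the mixed reference for each of 71 receptor genes, drawn as in the plot of the peptide genes. Asterisks mark the 7 lower and 2 higher genes with an adjusted p under 0.05, and 52 of the 71 means lie within 0.5 of 0.

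The receptor gene with the lowest mean was frpr-18 on chromosome V, the receptor of the flp-2 peptides, at -0.81, -1.39 and -0.64 (mean -0.95 ± 0.39, 1.93-fold lower, adjusted p = 0.0142, limma). All preps were below 0, and prep 2 was the lowest. Of the dmsr genes, 3 of 13 were lower (23.1%), where 11.9% of all genes were. dmsr-6 (II) was at -1.09, -0.69 and -1.05 (mean -0.94 ± 0.22, adjusted p = 0.0102, limma), dmsr-11 (V) at -1.52, -0.77 and -0.33 (mean -0.87 ± 0.61) and dmsr-5 (III) at -1.37, -0.71 and -0.51 (mean -0.86 ± 0.45). The preps of dmsr-6 were the closest together, and prep 1 was the lowest in all 3.

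Among the npr genes, 3 of 41 were lower (7.32%, against 11.9% of all genes), namely npr-35, npr-27 and npr-36. npr-35 (IV) was at -0.53, -1.33 and -0.61 (mean -0.82 ± 0.44, adjusted p = 0.0300, limma). npr-27 (IV) was at -1.15, -0.74 and -0.33 (mean -0.74 ± 0.41) and npr-36 (X) at -0.49, -1.08 and -0.56 (mean -0.71 ± 0.32). Both had adjusted p-values near the threshold, 0.0430 and 0.0429 (limma). Between dmsr-6 and dmsr-11 in the order of means, npr-19, which encodes a receptor related to mammalian cannabinoid receptors, did not pass: it was at -1.97 in prep 1 but -0.58 and -0.11 in preps 2 and 3 (mean -0.89 ± 0.97, adjusted p = 0.0744, limma).

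The 2 higher receptor genes, npr-30 and npr-29, are both on chromosome III. npr-30 was at 0.68, 1.04 and 0.90 (mean 0.88 ± 0.18, 1.84-fold higher, adjusted p = 0.0137, limma). npr-29 was at 0.67, 1.13 and 0.62 (mean 0.80 ± 0.28, 1.74-fold higher, adjusted p = 0.0237, limma). Every prep of both was well above 0. npr-14 (I), next in the order, had 2 probes with means of 0.61 and 0.60 and did not pass (gene mean 0.60 ± 0.33, adjusted p = 0.0777, limma).

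Which receptor genes passed also depended on the preps used. Without prep 2, 1 receptor gene was lower, dmsr-6, and 0 were higher, where 6.66% and 5.07% of all genes were lower and higher. The 8 that no longer passed, frpr-18, dmsr-11, dmsr-5, npr-35, npr-27, npr-36, npr-29 and npr-30, then had adjusted p-values between 0.0742 and 0.192 (limma). Without prep 1, 4 were lower and 3 higher (9.66% and 11.6% of all genes), and dmsr-11, dmsr-5 and npr-27 had adjusted p-values between 0.161 and 0.238 (limma). The added higher gene was npr-41, named after its values were seen, at -0.41, 1.48 and 0.58 in preps 1, 2 and 3 (adjusted p = 0.00643 without prep 1, limma). Without prep 3, 6 were lower and 0 higher (10.2% and 10.3% of all genes), and dmsr-6, npr-36, npr-29 and npr-30 were between 0.0511 and 0.0901. There npr-19 passed on the lower side (adjusted p = 0.00921, limma). With a running median of probes in the order of their identifiers subtracted, 4 receptor genes were lower, frpr-18, dmsr-6, dmsr-5 and npr-35, and the 3 other lower calls were lost. Both higher calls were lost too, with npr-29 and npr-30 at adjusted p = 0.118 and 0.0542 (limma), and npr-41 passed on the higher side instead (0.0490). The shares of all genes were then 12.3% lower and 11.6% higher. With all preps and no such step, 15 receptor genes with a negative mean and 3 with a positive mean had an unadjusted p under 0.05, where 17.9% and 17.6% of all genes did.

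Of the 62 receptor genes that did not pass, 46 had a 95% interval within -1 and 1, and 16 did not. For the 46, a ratio 2-fold from the reference in either direction was outside the interval. Signal over background was not examined, so these intervals limit the measured ratios and not the RNA levels. The log2 ratio of npr-12, for example, was 0.05, 0.05 and 0.06 (mean 0.05 ± 0.01, 95% interval -0.40 to 0.51). By family, the medians were -0.14 for npr, -0.16 for frpr, -0.11 for dmsr and -0.21 for the 2 ckr genes. Of the frpr genes, 1 of 15 was lower (6.67%) and 0 were higher, where 11.9% and 11.4% of all genes were lower and higher.

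Peptide and receptor genes were then set against each other on each array. The median of the peptide genes was -0.82, -0.72 and -0.72 in preps 1, 2 and 3, and that of the receptor genes -0.03, -0.31 and -0.11. Peptide genes minus receptor genes gave -0.79, -0.41 and -0.60, a mean of -0.60 ± 0.19 (SD, n = 3). The difference was negative on each array and larger than its spread over the arrays. It has no p-value here, because genes are not replicates and the members were chosen with results known. Signal over background was not examined, so the difference is one of measured ratios and not of RNA levels. Pearson's r between preps was 0.279 to 0.397 across receptor genes and 0.518 to 0.646 across peptide genes, against 0.712 to 0.778 across all genes. Of the 22 peptide genes, 21 lay below the median receptor gene, and 8 lay below the lowest one, while 6 of the 71 receptor genes lay below the median peptide gene.

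**Figure D3:**
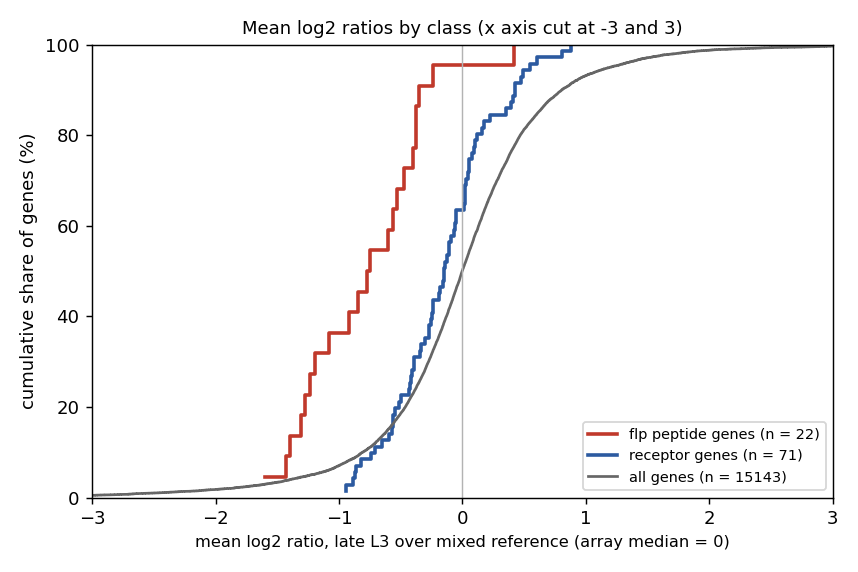
Cumulative share of genes (%) against the mean log2 ratio, for the 22 peptide genes, the 71 receptor genes and all 15143 genes. At 0 the curve of the peptide genes is the highest, with 95.5% of its genes below 0, while 63.4% of the receptor genes and 50.2% of all genes are below 0.

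Known ligands and receptors were compared pair by pair. The pairs were taken from published pharmacology, and 9 of 15 pairs had both genes measured. flp-2 and its receptor gene frpr-18 were both lower, at -1.31 and -0.95. The difference, flp-2 minus frpr-18, was -0.79, -0.05 and -0.24 in preps 1, 2 and 3. Its mean, -0.36 ± 0.39, was smaller than its spread. flp-15 was lower at -0.92, while npr-3 was at -0.39 ± 0.19 and did not pass (adjusted p = 0.213, limma). The difference, flp-15 minus npr-3, was -0.48, -0.69 and -0.40 in the 3 preps.

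flp-21 was lower at -0.75, and npr-1, the receptor that sets solitary or social feeding, was at -0.10, -0.08 and -0.40 (mean -0.19 ± 0.18, 95% interval -0.66 to 0.28). flp-21 minus npr-1 was -0.67, -0.77 and -0.22, below 0 in each prep. Not every pair ran this way. flp-13 was at -0.35, and its 2 receptor genes had lower means, dmsr-1 at -0.59 ± 0.34 (adjusted p = 0.0832, limma) and frpr-4 at -0.51 ± 0.42. None of the 3 passed, and flp-13 minus dmsr-1 and flp-13 minus frpr-4, at 0.24 ± 0.79 and 0.16 ± 0.36, were smaller than their spread.

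egl-6, the receptor gene for the flp-10 and flp-17 peptides, was lower at -0.89, -0.48 and -1.01 (mean -0.79 ± 0.28, adjusted p = 0.0249, limma), while its 2 ligand genes did not pass. flp-10 minus egl-6 was 0.35, 0.11 and 0.11 in preps 1, 2 and 3 (mean 0.19 ± 0.14). flp-17 minus egl-6 was 0.63, -0.17 and 0.72 (mean 0.39 ± 0.49), with mixed signs. egl-6 no longer passed once prep 1 (adjusted p = 0.0693) or prep 3 (0.142) was left out. The cholecystokinin-type receptor genes ckr-1 and ckr-2 were at -0.43 ± 0.47 and 0.01 ± 0.14, and neither passed. Their ligand gene nlp-12 was lower at -1.10, -0.12 and -1.46 (mean -0.89 ± 0.69, adjusted p = 0.0396, limma), with prep 2 near 0, and passed neither without prep 1 (0.0520) nor without prep 3 (0.215), nor with the arrays scaled to an equal spread (0.0758). nlp-12 minus ckr-1 was -0.40, 0.58 and -1.58 in preps 1, 2 and 3, with mixed signs and a mean of -0.46 ± 1.08. nlp-12 minus ckr-2 was -1.08, -0.29 and -1.35 (mean -0.91 ± 0.55). The other receptor genes of the pairs, whose ligand genes are not analysed here, were npr-4 at -0.55 ± 0.46, frpr-3 at -0.34 ± 0.10 and npr-11 at 0.02 ± 0.44, and none of them passed.

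The genes that make and release neuropeptides were examined next. Their list also holds nep-1, nep-2, nep-11 and nep-21, genes of neprilysin-type peptidases, which cut peptides. Of 20 measured genes of this list, 4 were lower and 1 higher (20% and 5%), where 11.9% and 11.4% of all genes were lower and higher. Their median was -0.11, against 0.00 for all genes. The 4 lower genes included pamn-1 and pgal-1, which encode enzymes of C-terminal amidation. pamn-1 was at -1.67, -1.25 and -0.97 (mean -1.30 ± 0.35, adjusted p = 0.00245, limma). pgal-1 was at -0.95, -2.04 and -1.03 (mean -1.34 ± 0.61, adjusted p = 0.00452, limma). The listed genes pghm-1, also of an amidation enzyme, and egl-3, of the proprotein convertase, are not analysed here.

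sbt-1, the 7B2-type chaperone of the proprotein convertase, was at -1.36, -1.69 and -1.15 (mean -1.40 ± 0.27, adjusted p = 0.00127, limma). Of the 20 measured genes, these 3 (pamn-1, pgal-1 and sbt-1) were at least 2-fold lower, as were 8 of the 22 peptide genes and 7.04% of all genes. ida-1, a dense core vesicle membrane protein, was at -0.95, -0.66 and -0.93 (mean -0.85 ± 0.16, adjusted p = 0.0157, limma), but not below the threshold without prep 3 (0.0798). The carboxypeptidase gene egl-21, which acts in the same route, was at 0.49, -0.42 and 0.35 (mean 0.14 ± 0.49) and did not pass. The neprilysin-type peptidase gene nep-2 was the only higher member (mean 0.71 ± 0.35, adjusted p = 0.0464, limma). It was not past the threshold without prep 2 (0.208) or prep 3 (0.102). Nor did it pass with a prior trended on the size of the mean (0.0573), array weights (0.0513) or the identifier trend removed (0.120).

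Receptor genes for other neuropeptides, outside the 4 families, had 2 lower and 1 higher of 21 measured, with a median of -0.14. These shares, 9.52% and 4.76%, were below the 11.9% and 11.4% of all genes. The lower ones were egl-6 and seb-3, a receptor of the corticotropin-releasing factor type, at -0.98 ± 0.42 (adjusted p = 0.0126, limma, and 0.0718 without prep 1). The higher one was trhr-1, the receptor of thyrotropin-releasing hormone-like peptides, at 0.94 ± 0.20 (adjusted p = 0.0102, limma, and 0.0644 without prep 2).

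A list of neuron markers was set beside the peptide genes. Its members are not all confined to nerve cells, nor all expressed in most of them. Of 16 measured, 2 were lower and 1 higher (12.5% and 6.25%), so that the share of lower calls was near the 11.9% of all genes, and 11.4% of all genes were higher. The median of their means was 0.05, but their medians on the single arrays were -0.08, -0.01 and -0.16, so that the sign of the list is not settled. The list ran from -0.83 for the synaptotagmin gene snt-1 to 0.78 for the tubulin gene tba-1, and the other lower marker was rgef-1 at -0.67 ± 0.24. The calls of snt-1 and tba-1 were lost without prep 2 (adjusted p = 0.122 and 0.0927), that of tba-1 also without prep 3 (0.0885), and that of rgef-1 with any 1 of the preps left out (adjusted p between 0.0792 and 0.178). The neuron markers thus lay near the array median and the peptide genes, which are expressed mainly in neurons, at -0.76, and this difference was not tested. Muscle markers were higher in 4 of 5 and intestine markers in 4 of 6, with medians of 2.26 and 1.08, where 11.4% of all genes were higher. Of 6 epidermis markers 3 were higher and 1 lower, with a median of 1.27 and means from -2.66 for col-19 to 3.77 for dpy-13. The part of tissue composition in the position of the peptide genes was not tested.

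**Figure D4:**
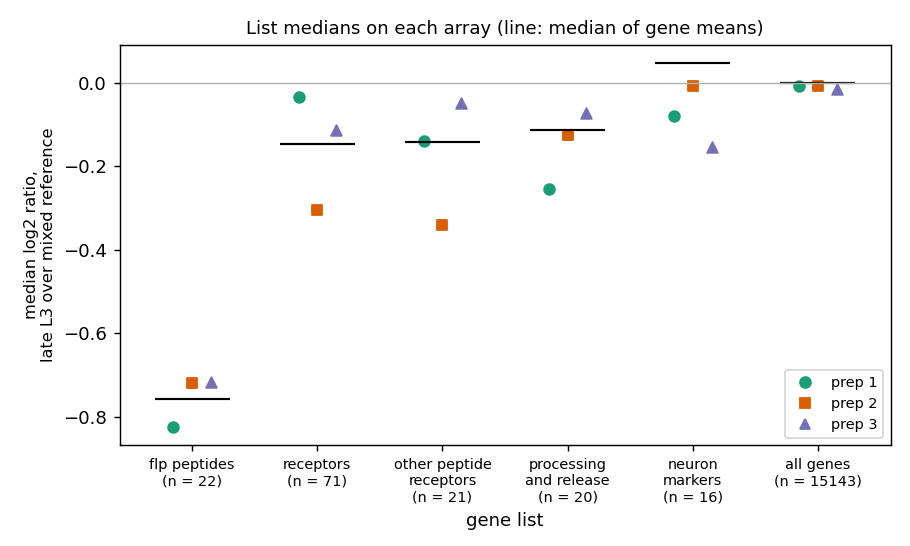
Median log2 ratio, late L3 over mixed reference, of 6 gene lists on each array (symbols) and over the gene means (line). The peptide genes lie between -0.82 and -0.72 on all arrays, and the lowest value of any other list is -0.34, the other peptide receptors in prep 2.

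Peptide genes were low both on the X chromosome and on autosomes. On X were 9 of the 22 peptide genes (40.9%) and 23 of the 71 receptor genes (32.4%), against 15% of all genes. Of the 9 peptide genes on X, 5 were lower, with a median of -0.84, and of the 13 on autosomes 7 were lower, with a median of -0.75. The receptor genes on X had 1 lower and 0 higher members of 23 and a median of 0.02, and those on autosomes 6 lower and 2 higher of 48 and a median of -0.24. Of all genes on X, 9.76% were lower and 14.6% higher, with a median of 0.04. Of all genes on autosomes, 12.3% were lower and 10.8% higher, with a median of -0.01.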

How the data were processed

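The authors deposited a table of log2 ratios of the 2 channels, 20000 probes by 3 arrays. How they normalized the ratios and filtered spots is not given in the sources used. The base follows from the values: 2 to the power of the value gave whole thousandths (to within 0.01 of a thousandth) for 100% of ratios under 0.3. Of the probes, 15655 were assigned to a single gene by the probe table supplied for the series. Current symbols and chromosomes came from RefSeq's table for assembly WBcel235. A probe with several genes, 1 of them a member, was not used. Another 9 flp, 4 npr, 5 frpr and 3 dmsr genes of that table are not analysed here.

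The median of each array was subtracted, values of several probes were averaged per gene, and the mean of each of 15143 genes present on all 3 arrays was compared with 0 by limma 3.58.1 (R 4.3.3; lmFit, eBayes, 2-sided, Benjamini-Hochberg over all genes, threshold 0.05). The reference's own spread does not enter this test. Precision is limited by having 3 arrays. Without single-colour signals, neither dye bias, signal over background nor cross-hybridisation between related receptor genes was examined. Errors are SD over 3 preps, and intervals are 95% intervals of the fit, not adjusted.

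The members and lists were chosen with earlier results of these data known. By the rule for named genes, all peptide genes are named, with values in each prep for those past the threshold, and of the receptor genes those past the threshold, the 3 highest and 3 lowest means and those of the ligand pairs. npr-12, flp-11, flp-13, flp-23, seb-3 and egl-21 are given as examples chosen after their values were seen or in more detail than the rule asks. Counts of sequence motifs and protein lengths were planned but not made, for want of protein sequences.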

Additional observations from a re-analysis of the deposited data

How the results depend on the processing

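Of 18 alternatives, none gave a higher peptide gene (0 genes), and the peptide median stayed between -0.79 and -0.63, the receptor median between -0.23 and -0.12 and their difference between -0.64 and -0.50. Alternatives that changed only the prior, the shared spread or the threshold leave the means as they are and could not move these medians. Those for probes, gene names and missing values could hardly move them. Centring the arrays otherwise, or not at all, shifts all genes alike and could not move the difference. With 1 prep left out, lower peptide genes numbered 6 to 10, lower receptor genes 1 to 6 and higher receptor genes 0 to 3. The peptide median ranged from -0.73 to -0.72, the receptor median from -0.23 to -0.12 and the difference from -0.60 to -0.50. With no spread shared between genes, 0 peptide genes, 0 receptor genes and 0 of all 15143 genes passed. By this test 8 peptide and 5 receptor genes on the lower side had an unadjusted p under 0.05, where 11.9% of all genes did. On the higher side 3 receptor genes did, where 9.69% of all genes did. With a running median of probes in identifier order subtracted, the peptide median was -0.6317, with 12 lower peptide genes (flp-10 passed and flp-14 did not, adjusted p = 0.0277 and 0.0878, limma) and 4 lower and 1 higher receptor genes (npr-41), and the cause was not tested. Asking for a 2-fold difference, or for an adjusted p under 0.01, left 8 lower peptide genes and 0 lower and 0 higher receptor genes. Of all 15143 genes, the 2-fold setting left 1054 lower and 1016 higher, and the 0.01 setting 1001 and 890. At an adjusted p under 0.10 there were 14 lower peptide genes and 12 lower and 3 higher receptor genes (15.6% and 15.4% of all genes). The trended prior had its trend on the size of the mean log2 ratio and not on signal. It gave 5 lower receptor genes, with 1671 of all 15143 genes lower, and array weights gave 6, with 1799 lower. Means of the named genes past the threshold kept their sign under every alternative, though those of the prior, shared spread or threshold could not change it. No paired analysis was possible because the arrays form a single group. The number of arrays limits all calls, and signal over background was not examined.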

Other observations

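The median SD over the preps was 0.356 for the peptide genes, 0.387 for the receptor genes and 0.341 for all genes. Across the 71 receptor genes Pearson's r was 0.279 between preps 1 and 2, 0.369 between preps 1 and 3 and 0.397 between preps 2 and 3. Across the 22 peptide genes it was 0.551, 0.646 and 0.518, and across all genes 0.712, 0.721 and 0.778. These are correlations across genes, which are not independent replicates and share their array, and the difference between them was not tested. In prep 1, 5 of the 71 receptor genes (7.04%) exceeded the higher of the other preps by more than 1 log2 unit, as did 1.12% of all genes. They were npr-33, dmsr-10, npr-38, npr-40 and frpr-1, at 1.61, 1.51, 1.37, 1.17 and 0.77 in prep 1, and were picked by their values. In preps 2 and 3, npr-33 was at -0.49 and 0.11, and dmsr-10 at -0.25 and -0.09.

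Some members are neighbours in the genome. dmsr-10, dmsr-11 and dmsr-12 follow one another on chromosome V in the RefSeq order of protein-coding genes, with means of 0.39, -0.87 and -0.27, of which only dmsr-11 passed. In the same stretch, dmsr-14, dmsr-13 and dmsr-15 were at 0.42, -0.06 and 0.03, and none of them passed. flp-3 and flp-2 are direct neighbours on X, and both were lower, at -1.20 and -1.31.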
